A study of Mus musculus with 2 samples.

Results

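The genes of the MYC, MAX and MXD network, with the separate factor gene Myb, were examined in erythroblasts of the mouse fetal liver. The 10 genes were listed by name with no threshold on their values, although earlier results of these data were known, and are Myc, Mycn, Max, Mxi1, Mxd1, Mxd3, Mxd4, Mnt, Mlx and Myb. All 10 were matched by their Ensembl identifiers among the 43346 genes of the deposited tables, with 35 of the 103639 transcripts. Erythroblasts are the nucleated precursors of red cells. They had been taken from livers of embryos of both sexes, pooled, at day 14.5, as cells carrying the red cell surface antigen Ter119. There is 1 group of 2 libraries, called library 1 and library 2 by their labelled replicate numbers. The labels name no strain, genotype change or treatment. They list 1 donor entry for both libraries and a biosample for each, so p-values measure only how these libraries differ, which may be technical. No condition could be compared. The values therefore describe the levels in this population, the transcripts that carry them and the difference between the 2 libraries.

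MYC is a transcription factor of the basic helix-loop-helix zipper type that binds DNA only as a dimer with MAX. The MXD proteins, MXI1 and MNT also pair with MAX, occupy the same E-box sequence and recruit the SIN3 and histone deacetylase corepressors, so they act as antagonists of MYC. MLX is a MAX-like protein that pairs with some of the same repressors and with the glucose-responsive MONDO factors. MYB belongs to another family and is known for its role in blood progenitors. In red cell development the loss of MYC and MYB activity is known to accompany the exit from the cell cycle.

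The network reads the E-box, written CACGTG, and the same letters were searched for in the promoters of its own genes, where they place the recognition sequence relative to each start. RefSeq promoters (build GRCm38.p6, from 250 bases before to 50 after each start) were matched for 9 of the 10 genes, with 11 promoters in all. The gene without a matched promoter was Myc, so the Myc promoter was not searched for either motif below. Of the 11 promoters 4 held the motif, which reads the same on both strands, 1 each in 4 genes, against 7.15% of 32851 promoters of this length. The sites are shown 5′ to 3′ on the gene's strand with the E-box in capitals.
Mxd4, chr5:34187912-34187941, minus strand: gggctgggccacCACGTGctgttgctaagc
Mnt, chr11:74830789-74830818, plus strand: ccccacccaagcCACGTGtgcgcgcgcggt
Mlx, chr11:101087238-101087267, plus strand: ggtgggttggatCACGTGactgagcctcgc
Max, chr12:76962234-76962263, minus strand: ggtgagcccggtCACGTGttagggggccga
Relative to the RefSeq start of each promoter the motif begins at -3 in Max, -40 in Mlx, -123 in Mnt and -219 in Mxd4. The RefSeq start of Max is not that of its quantified transcripts. Those start at 76962201 and 76962185, so the printed Max site lies wholly upstream of both. In gene TPM the 4 genes did not stand together, since Max, Mnt and Mlx were above 1 TPM and Mxd4 was below it. On transcripts with a complete coding sequence alone Mlx was also below 1 TPM, at 0.30 and 0.39 TPM. A GATA motif (AGATAA, either strand) was found in 0 of the 11 promoters and in 11.2% of all promoters. A match is a description of the letters and not a measured binding site.

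Levels are given in TPM, a measure of transcript abundance corrected for length, and genes are compared on that scale. In both libraries 7 of the 10 genes reached 1 TPM. The same level was reached by 10.4% of all genes and by 20% of 21474 protein-coding genes. The genes that did not pass were Mxd4, Myb and Mycn. The median of the 10 mean levels was 4.27 TPM, against 0.020 TPM over all protein-coding genes and 5.02 TPM over the protein-coding genes that passed the threshold. In rank among protein-coding genes they ran from 868 for Mxd3 to 10774 for Mycn. The 10 genes together had 11929 counts in library 1 and 11241 in library 2, which is 0.0233% and 0.0254% of the 51190555 and 44256287 expected counts. The 10 most abundant genes of each library took 75.9% and 75.1% of its counts. The globin genes Hba-a1 (478231 and 464012 TPM) and Hbb-bs (316734 and 348290 TPM) held most of each library's TPM. Because TPM is a share of the whole, levels here are not comparable with those of tissues without globin.

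Myc was the only MYC family gene above the threshold. Myc (chromosome 15, 61985391 to 61990374 in mm10) had 4.42 TPM in library 1 and 4.7 TPM in library 2, from 912 and 754 counts. Its mean of 4.56 ± 0.198 TPM (SD, n = 2) exceeded the level of 89.4% of protein-coding genes. Mycn, the paralog best known from nervous tissue and early embryos (chromosome 12, 12936093 to 12941914), had 3 counts in library 1 and 1 in library 2, or 0.02 and 0.01 TPM. The exact 95% Poisson intervals of these counts run from 0.619 to 8.77 and from 0.0253 to 5.57 and cover counting error only. Mycl, the other paralog, also had 3 and 1 counts. Counts this low do not separate a trace of expression from none.

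Max encodes the obligate partner of the network and was expressed at a level close to that of Myc. Max (chromosome 12, 76937269 to 76962201) had 5.3 TPM in library 1 and 6.88 TPM in library 2, with a mean of 6.09 ± 1.12 TPM. The ratio of Max to Myc in TPM was 1.20 in library 1 and 1.46 in library 2. Relative to the summed TPM of the genes whose products compete for it (Myc, Mycn, Mxd1, Mxi1, Mxd3, Mxd4 and Mnt), Max stood at 0.128 and 0.141. The messages of the partners were therefore several times more abundant in sum than the message of Max, and protein amounts were not measured.

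The 2 quantified Max transcripts differ within the coding sequence by a single short exon, shown here because it sets apart the known long and short forms of MAX. The exon lies at chr12:76961263-76961289 on the minus strand, has 27 bases or 9 codons and begins at coding base 37. The junctions are given 5′ to 3′ from the GENCODE M21 transcripts with the inserted exon in capitals.
Max-202: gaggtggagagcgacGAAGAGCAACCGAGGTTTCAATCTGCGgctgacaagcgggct
Max-201: gaggtggagagcgacgctgacaagcgggct
Max-201, which lacks the exon, took 61.2% of Max TPM in library 1 and 61.9% in library 2. Max-202, which has it, took 38.8% and 38.1%. Their levels were 3.24 and 4.25 TPM for Max-201 and 2.06 and 2.62 TPM for Max-202. The split between the forms differed between the libraries by less than 1 percentage point.

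Among the antagonists Mxd3, Mxd1 and Mxi1 were each above Myc in both libraries. Mxd3, which is known from cells in S phase (chromosome 13, 55325168 to 55329823), was the highest of the 10 genes with 17.41 and 19.71 TPM in the 2 libraries, a mean of 18.6 ± 1.63 TPM that exceeded 96.0% of protein-coding genes. Mxd1, known as a MAX partner induced when blood cells differentiate (chromosome 6, 86647042 to 86669161), had 9.12 and 12.66 TPM, with a mean of 10.9 ± 2.50 TPM. By counts, which favour long messages, Mxd1 led with 4034 and 4364 against 1766 and 1643 for Mxd3. The single quantified transcript of Mxd1 has 4662 bases and the leading transcript of Mxd3 has 1327.

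In gene TPM Mxi1 was above Myc, Mnt was just below it and Mxd4 was lower than both. Mxi1 (chromosome 19, 53310518 to 53375810), a MAX partner that represses through SIN3, had 6.63 TPM in library 1 and 6.94 TPM in library 2. Mnt (chromosome 11, 74830920 to 74845725), the most widely expressed antagonist, had 3.61 and 4.34 TPM, of which complete coding transcripts held 1.72 and 1.79 TPM. Mxd4 (chromosome 5, 34173883 to 34187720) had 0.32 and 0.36 TPM from 75 and 66 counts, a mean of 0.340 ± 0.0283 TPM. The MXD family was thus split, with Mxd3 and Mxd1 above at least 93.9% of protein-coding genes and Mxd4 above 70.3%.

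The summed TPM of the 5 antagonists was 37.09 in library 1 and 44.01 in library 2, or 8.39 and 9.36 times the TPM of Myc. Mxd3 made up 46.9% and 44.8% of that sum, Mxd1 24.6% and 28.8%, Mxi1 17.9% and 15.8%, Mnt 9.73% and 9.86%, and Mxd4 0.863% and 0.818%. The mean ratio of antagonists to Myc was 8.88 ± 0.688. It was 4.81 when Mxd3 was left out of the sum, which is 1 gene moving the value by more than 1.5 times.

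**Figure D1:**
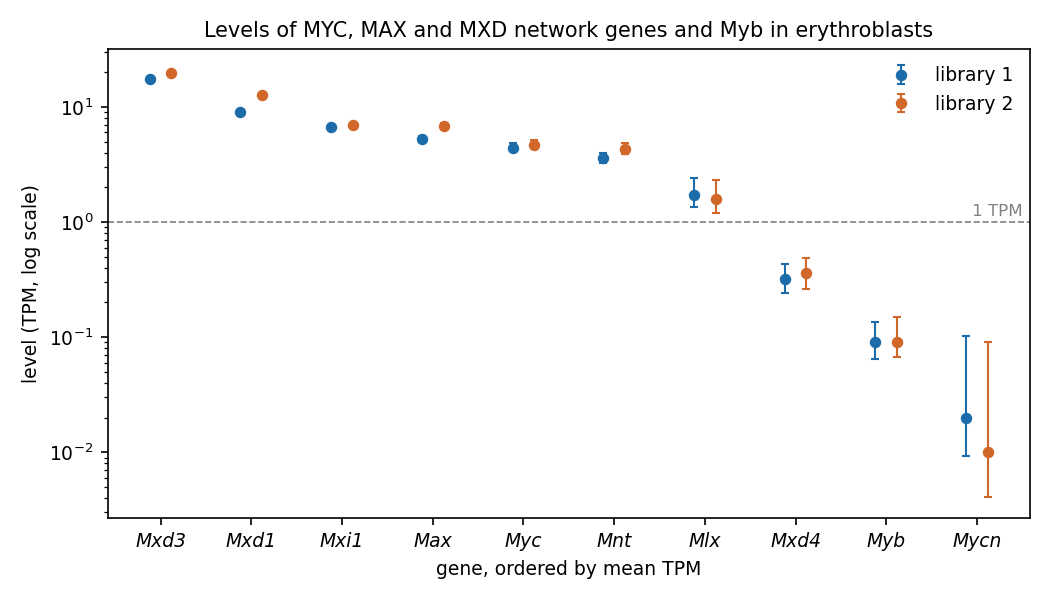
Levels of the 10 genes in TPM on a log axis, with library 1 in blue and library 2 in orange. Bars are the intervals on TPM deposited with each library, whose level is not stated in the sources used here, and the dashed line marks 1 TPM. Mxd3 stands highest at 17.41 and 19.71 TPM, and Mxd4, Myb and Mycn lie below the line in both libraries.

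The order of mean TPM was Mxd3, Mxd1, Mxi1, Max, Myc, Mnt, Mlx, Mxd4, Myb and Mycn. Of the 9 pairs of neighbours in this order, Mxi1 and Max were the pair whose library values overlapped. Myc and Mnt did not overlap, but Myc was above Mnt by 1.22 times in library 1 and 1.08 times in library 2. On complete coding transcripts alone the gap was wider, with Myc at 4.41 and 4.70 TPM and Mnt at 1.72 and 1.79 TPM. The step from Mlx to Mxd4 was 5.41-fold and 4.44-fold in gene TPM. It was not present on complete coding transcripts, where Mlx had 0.30 and 0.39 TPM and Mxd4 0.32 and 0.35 TPM. The step from Myb to Mycn rests on 4 counts for Mycn in all. With 2 libraries no test of the order was made.

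Mlx was above 1 TPM in gene TPM, and its MONDO partners were below that level. Mlx (chromosome 11, 101087277 to 101092207) had 1.73 TPM in library 1 and 1.6 TPM in library 2, from 96 and 78 counts. Its 7 transcripts did not share this level evenly. Mlx-207, a coding transcript of 403 bases with an incomplete reading frame, took 68.7% and 75.7% of Mlx TPM but 31.6% and 31.5% of its counts, and all 403 of its bases lie in exons of the full-length Mlx-201. Transcripts with a complete coding sequence summed to 0.30 TPM in library 1 and 0.39 TPM in library 2, so that Mlx is under 1 TPM when these alone are counted. Its exons also overlap those of Psmc3ip on the opposite strand over 385 bases, 19.3% of the annotated exon bases of Mlx. Psmc3ip had 5.16 and 4.19 TPM, and reads of the 2 genes there cannot be told apart where strand was not used. The MONDO partners Mlxip and Mlxipl had 0.065 ± 0.0495 and 0.055 ± 0.0354 TPM. Mga, a large MAX partner, had 0.050 ± 0.0424 TPM, so 0 of 4 further network genes reached 1 TPM in both libraries.

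Myb was below 1 TPM in both libraries while its paralog Mybl2 was above it. Myb (chromosome 10, 21124935 to 21160984) had 28 counts in library 1 and 24 in library 2, or 0.09 TPM in each. Its mean exceeded the level of 60.3% of protein-coding genes, whose median was 0.020 TPM. Mybl2, a MYB family gene of dividing cells, had 22.61 and 31.95 TPM, a mean of 27.3 ± 6.60 TPM and above every network gene examined. Mybl1, the third family gene, had 13 and 2 counts. In bulk RNA a small number of cells with much Myb and a large number with little cannot be told apart. Myb had the lowest GC content of the 10 genes, 45.7% as the mean of its transcripts, against 50.3% to 60.3% for the others. Of protein-coding genes with 45 to 50% GC 16.6% passed 1 TPM in both libraries, against 25.6% at 50 to 55% and 32.0% above that, and the part of GC content in the level of Myb was not tested.

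Transcript shares were taken from the deposited percentages for the 8 genes that had at least 50 counts in each library. By TPM 6 of the 8 genes kept their leading transcript from library 1 to library 2, and by counts 7 did. The exceptions by TPM were Myc and Mxd4. In Mxd4 the transcripts of 3872 bases (49.9% and 51.6%) and 1160 bases (50.1% and 48.4%) were near even in TPM, whereas the longer held 78.5% and 79.5% of the counts.

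In Myc the transcript with the highest share changed with the library. Myc-202, of 2186 bases, took 56.3% of Myc TPM in library 1 and 29.1% in library 2. Its level was 2.49 TPM with a deposited interval of 1.79 to 2.79 in library 1, and 1.37 TPM with an interval of 0.848 to 1.95 in library 2. Those intervals overlap. Myc-201 and Myc-205 have an identical sequence of 2338 bases and differ only in the annotated start of the reading frame, and each was given the same share, 21.8% in library 1 and 31.1% in library 2. No read can divide them. Together they held 43.7% in library 1 and 62.1% in library 2. Myc-204 had 0 counts in library 1 and 51.24 in library 2. Of the 4 transcripts with counts, Myc-202, Myc-204 and Myc-205 have an annotated coding start at position 61987522 and 1317 coding bases. Myc-201 has its annotated start upstream, at 61985922, and 1362 coding bases.

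Mxi1 was carried by a pair of transcripts with separate starts, called long and short here by their coding sequence and shown because their coding starts differ. The long form begins 18940 bases before the short form and has 309 coding bases beside the 576 that they share. The first 60 coding bases of each are given with the start codon in capitals.
Mxi1 long form, chr19:53310700-53310759, plus strand: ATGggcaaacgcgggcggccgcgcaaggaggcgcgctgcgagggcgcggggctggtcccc
Mxi1 short form, chr19:53331386-53331445, plus strand: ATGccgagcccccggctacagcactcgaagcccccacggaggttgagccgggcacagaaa
The short form took 62.1% of Mxi1 TPM in library 1 and 53.6% in library 2, and the long form took 37.9% and 46.2%. The long form had 2.52 TPM in library 1, with a deposited interval of 2.32 to 2.68. In library 2 it had 3.21 TPM with an interval of 2.94 to 3.41, which does not overlap the first. The intervals of the short form, 3.87 to 4.31 and 3.43 to 3.94 TPM, do overlap. Both forms were given counts in both libraries, and the use of their starts was not tested.

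Short or retained-intron transcripts held part of the level of Mnt and Mxd3. Mnt-203, a retained-intron transcript of 777 bases of which 740 lie in exons of the full-length Mnt-201, took 52.3% and 58.7% of Mnt TPM but 13.5% and 17.0% of its counts. The full-length Mnt-201, of 4590 bases, had 1.72 and 1.79 TPM. In Mxd3 the coding transcript took 64.6% and 73.4% of TPM, a processed transcript of 683 bases 27.9% and 19.6%, and a retained-intron transcript 7.52% and 7.08%. On complete coding transcripts alone Mxd3 had 11.24 and 14.46 TPM and still stood above Mxd1. The exons of Mxd3 overlap those of Prelid1 on the opposite strand over 105 bases, 4.43% of its exon bases, and Prelid1 had 17.86 and 34.38 TPM.

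**Figure D2:**
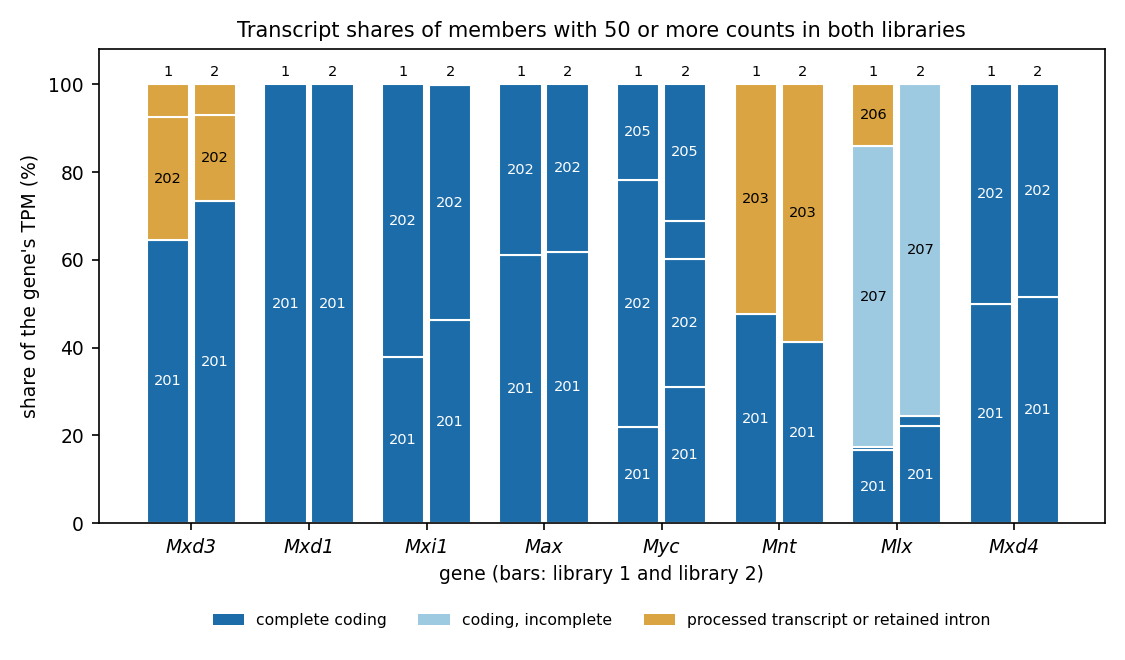
Share of each gene's TPM by transcript, in percent, for the 8 genes that had at least 50 counts in each library, with the left bar for library 1 and the right bar for library 2. Dark blue marks complete coding transcripts, light blue coding transcripts with an incomplete frame and yellow processed or retained-intron transcripts. Numbers inside the bars are transcript numbers. Complete coding transcripts hold all of Mxd1 and under 25% of Mlx.

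The 2 libraries differed by more than counting error at 3 of the 9 genes with 10 or more counts, 33.3%, against 44.9% of 10955 genes tested in the same way. Counts scaled by edgeR's TMM factors were compared by an exact binomial test, two-sided and conditional on each gene's total, with Benjamini-Hochberg adjustment over all 10955 genes. The test compares libraries and not conditions. A log2 ratio is library 2 over library 1, with an exact 95% counting interval. The share among the network genes was not above that of all genes.

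Mxd1 and Max were higher in library 2, which is 2 genes against a background of 22.4%, and Mxi1 was lower, 1 gene against 22.5%. For Mxd1 the scaled counts were 79.3 and 98.0 CPM (counts scaled to library size), a log2 ratio of 0.30 (0.24 to 0.37) with an adjusted p of 8.69e-21 by the exact binomial test. For Max they were 18.8 and 21.8 CPM, a log2 ratio of 0.21 (0.08 to 0.34) with an adjusted p of 0.00478 by the exact binomial test. For Mxi1 they were 62.7 and 58.5 CPM, a log2 ratio of -0.10 (-0.18 to -0.02) with an adjusted p of 0.0224 by the exact binomial test. The call of Mxi1 was lost with total counts as library sizes, and in TPM Mxi1 was higher in library 2, not lower. All 3 calls were lost in edgeR's exact test with a common spread of 24.0%, which edgeR calls a biological coefficient of variation. That spread was estimated from the same 2 libraries as if they were replicates, so it contains the difference under test. Few calls are therefore built into that test, here and for the gene lists below. It cannot decide whether the libraries differ at a gene. With that test 0 of the 9 genes passed at the adjusted threshold, against 187 of the 10955 genes tested, 1.71%. An unadjusted p under 0.05 was found for 0 of the 9, against 1084 of all genes tested.

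The other 6 tested genes did not pass. Myc had a log2 ratio of -0.08 (-0.22 to 0.06), Mnt -0.05 (-0.19 to 0.09) and Mxd3 0.09 (-0.01 to 0.18). The intervals of Mxd4 (-0.49 to 0.50), Mlx (-0.56 to 0.34) and Myb (-0.88 to 0.81) are wider because of their few counts. For the 6 network genes that had at least 100 counts in each library the absolute log2 ratio had a median of 0.09, against 0.24 over the 5257 genes with such counts. These medians are not matched for depth, since the 6 genes had at least 733 counts in each library. They therefore cannot decide whether the network genes differ less than other genes of equal depth. TPM values of those 5257 genes were higher in library 2 by a median log2 of 0.16, which scaled counts (0.0024) do not show. Directions between the libraries are therefore given in scaled counts. In TPM the values of Myc, Mxi1 and Mnt were higher in library 2 and in scaled counts lower.

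**Figure D3:**
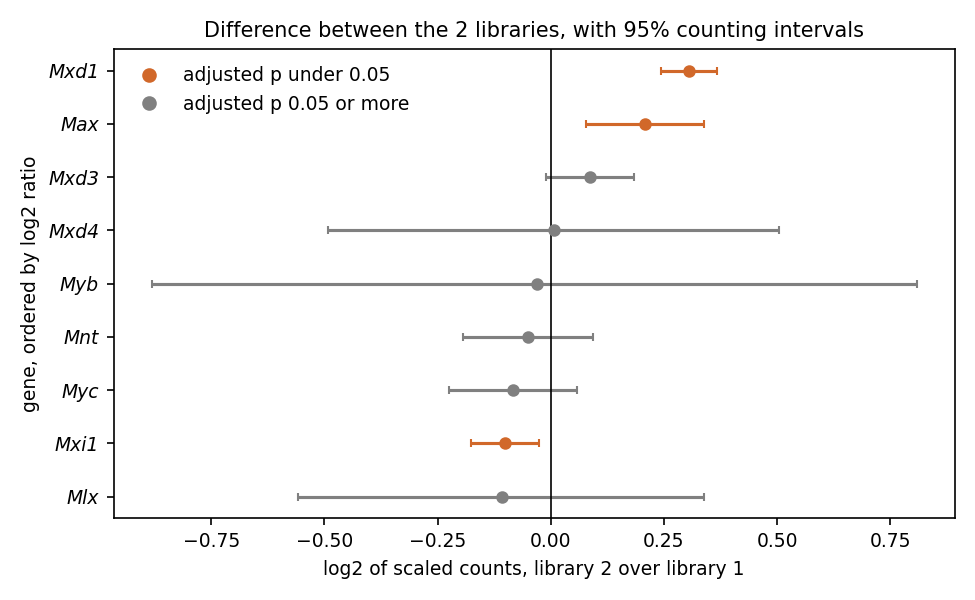
Log2 ratio of scaled counts, library 2 over library 1, for the 9 genes tested, with exact 95% counting intervals as bars. Orange marks an adjusted p under 0.05 in the exact binomial test. Mxd1 and Max lie to the right of 0 and Mxi1 to the left, while the intervals of the other 6 genes include 0.

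The corepressors of the antagonists were mostly present. Of 16 corepressor genes 13 passed 1 TPM in both libraries. Sap18, a SIN3-associated protein shared with splicing complexes, was highest at 91.5 ± 10.6 TPM, ahead of the deacetylase Hdac1 at 9.0 ± 0.537 TPM. Ing2 was lowest at 0.485 ± 0.106 TPM. The scaffold Sin3b had 2.97 and 4.91 TPM, whereas Sin3a had 0.64 and 0.89 TPM and did not pass. By the exact binomial test 4 of the 16 were higher in library 2, against 22.4% of all genes tested, and 6 were lower, against 22.5%. With edgeR's exact test 0 of the 16 were called, against 187 of the 10955 genes tested. An unadjusted p under 0.05 was found for 0 of the 16, against 1084 of all genes tested.

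Genes for MYC cofactors and for MYC protein turnover were also examined. Of 17 cofactor genes 13 passed 1 TPM, among them the chromatin remodelling subunit Smarcb1 (34.4 ± 2.76 TPM) and Hcfc1 (21.8 ± 8.41 TPM), with the cyclin Ccnt1 lowest at 0.520 ± 0.113 TPM. By the exact binomial test 9 of the 17 were higher in library 2, against 22.4% of all genes tested, and 0 were lower, against 22.5%. With edgeR's exact test 0 of the 17 were called, against 187 of the 10955 genes tested. An unadjusted p under 0.05 was found for 1 of the 17, against 1084 of all genes tested. Of 16 turnover genes 8 passed, led by the kinase Gsk3a (33.6 ± 3.27 TPM), the ubiquitin ligase Stub1 (9.73 ± 0.410 TPM) and the mitotic kinase Aurka (8.81 ± 5.14 TPM). The MYC ubiquitin ligase Fbxw7 had 0.35 and 0.30 TPM, and Trim32 was lowest with 0 and 5 counts.

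Genes known as targets of MYC were not uniform in level. Of 35 genes known to be activated by MYC 28 passed 1 TPM in both libraries, a median of 6.32 TPM. The kinase Cdk4 was highest at 87.51 ± 10.01 TPM, followed by the nucleolar protein Ncl at 74.4 ± 4.84 TPM and the growth regulator Pa2g4 at 43.7 ± 5.61 TPM. The cyclin Ccnd2 had 0.125 ± 0.00707 TPM, and the telomerase gene Tert was lowest with 0 and 4 counts. Of 12 genes known to be repressed by MYC 6 passed, led by the stress gene Gadd45a (152 ± 8.20 TPM), the kinase inhibitor Cdkn2c (18.6 ± 0.0636 TPM) and the antiproliferative Btg2 (15.1 ± 2.40 TPM), and Cdkn2b and Gas1 had 0 counts in both libraries. The limit that 0 counts leave is 3 counts, which is 0.0586 CPM for library 1 and 0.0678 CPM for library 2. By the exact binomial test 8 of 34 activated targets were higher in library 2 and 15 lower, and of 9 repressed targets 1 was higher and 4 were lower, against 22.4% and 22.5% of all genes tested. With edgeR's exact test 0 genes of either list were called, against 187 of the 10955 genes tested. An unadjusted p under 0.05 was found for 1 activated and 0 repressed targets, against 1084 of all genes tested. Both lists held genes at high and at low levels in these bulk libraries.

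Targets of the MLX and MONDO factors and of MYB are read against the 20% of protein-coding genes that reached 1 TPM. Of 7 MLX and MONDO targets 2 passed in both libraries, the pyruvate kinase Pklr (58.6 ± 0.651 TPM) and the fatty acid synthase Fasn (5.04 ± 0.735 TPM). Txnip, a textbook reporter of MONDO activity, had 1.31 and 0.77 TPM, and Hk2 was lowest at 0.03 TPM in each library. Of 12 MYB targets 3 passed, namely Lmo2 (155 ± 13.0 TPM), Mpo (4.28 ± 1.16 TPM) and Elane (1.93 ± 0.0566 TPM), and Bcl2 was lowest with 2 and 5 counts. Mpo and Elane are granule genes of the neutrophil lineage.

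**Figure D4:**
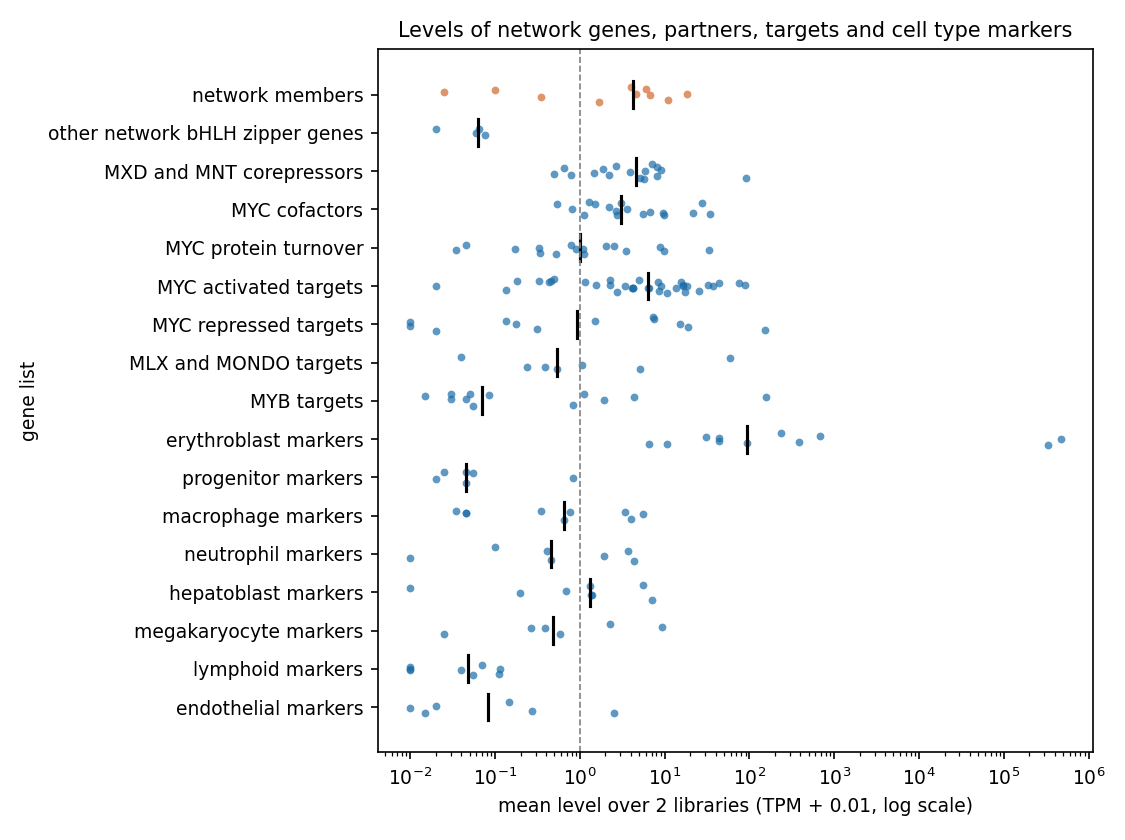
Mean level over the 2 libraries for each gene of each list, as TPM + 0.01 on a log axis, with 1 point per gene, network genes in orange and the median of a list as a black bar. The dashed line marks 1 TPM. The median of the network genes is 4.27 TPM, close to those of the corepressors (4.55 TPM) and activated targets (6.32 TPM), and the medians of progenitor, lymphoid and endothelial markers lie under 0.1 TPM.

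The labelled cell type was checked against its markers. Of the erythroblast markers 11 were measured, all 11 passed 1 TPM, and Ahsp was not analysed here. Of 6 progenitor markers 0 passed, with summed TPM of 1.02 in library 1 and 0.89 in library 2. Gata2 held most of that sum, at 0.85 and 0.78 TPM from 257 and 184 counts, and Kit had 36 and 9 counts. Macrophage markers summed to 11.46 and 18.03 TPM (3 of 9 passed), neutrophil markers to 10.06 and 11.6 TPM (3 of 7), hepatoblast markers to 15.94 and 18.79 TPM (3 of 8) and megakaryocyte markers to 11.2 and 14.36 TPM (2 of 6). Lymphoid markers summed to 0.28 and 0.40 TPM (0 of 8 passed) and endothelial markers to 2.84 and 2.98 TPM (1 of 6). The endothelial marker that passed was Egfl7, at 2.52 and 2.47 TPM. Ly6g, Serpina1b, Cd3e, Gzmb and Rag1 had 0 counts in both libraries. The highest genes of the same lists were the neutrophil marker Mpo (3.46 and 5.10 TPM), the hepatoblast marker Apoa1 (6.01 and 8.05 TPM) and the lymphoid marker Cd79a (0.09 and 0.12 TPM). The other cell types also express genes of the network, and their part in these levels was not tested.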

How the data were processed

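The 2 libraries of the 1 group are paired-end sequencing of poly(A) RNA. Reads were aligned to mm10 with GENCODE M4, per a file listing deposited with the tables; names of the aligner, quantifier, versions and use of strand were not given in the sources used here. Deposited expected counts divide reads that match several features, and those of all 10 genes were whole numbers. The deposited TPM and FPKM are length-corrected. The deposited percent values give each transcript's part of its gene's TPM. The deposited bounds of intervals on TPM are a score whose level is not stated.

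Counts were rounded and scaled by TMM in edgeR 4.0.16 (R 4.3.3; factors 0.993 and 1.01). The exact binomial test took genes whose counts in library 1 and library 2 sum to at least 10, adjusted over all of them at a threshold of 0.05, and was tested on simulated data. It covers counting error only. Symbols, positions and transcript types came from GENCODE M21 of the same assembly, which matched all 35 transcripts. GC content is a mean over transcripts. Python 3.11.15, numpy 2.4.6, pandas 2.3.3, scipy 1.17.1 and matplotlib 3.10.9 were used.

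The members and lists were chosen with earlier results of these data known. The genes named are the members, from each list the 3 highest by mean TPM with the 1 lowest, and some chosen after their values were seen (Sin3a, Sin3b, Fbxw7, Ccnd2, Txnip, Kit and genes at 0 counts). Some genes that the rule would name are not reported here. For the cell type markers sums are given in place of most single genes. The alternatives tried were size factors from DESeq2 1.42.0, library totals, other minima, pseudocounts and units, edgeR's exact test and each library alone. Protein sequences were not used here.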

Additional observations from a re-analysis of the deposited data

How the results depend on the processing

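The count of genes at 1 TPM or more was 7 in each library alone, 7 at 0.5 TPM, with posterior mean TPM and with FPKM, and 6 at 2 TPM or on complete coding transcripts, where Mlx was lost. The count of genes called between the libraries was 3 with DESeq2 size factors, no count minimum or a minimum of 100, and 2 with total counts. It was 0 with edgeR's exact test and common dispersion, which called 187 of all genes against 4914. The spread in that test was estimated from the same 2 libraries that it compares, so fewer calls are built in. In TPM with a pseudocount of 1 the log2 ratios of Myc (0.073), Mxi1 (0.057) and Mnt (0.21) reversed from -0.079, -0.098 and -0.047. The ratio of antagonists to Myc was 8.39 to 9.36 in single libraries, 11.7 in CPM, 7.14 on complete coding transcripts and 4.81 without Mxd3. The ratio of Max to its partners was 0.128 to 0.141 in single libraries, 0.0919 in CPM and 0.163 on complete coding transcripts. The settings with complete coding transcripts and without Mxd3 were chosen after seeing the data. The same leading transcript was found for 7 of 9 genes at a minimum of 20 counts and 5 of 6 at 100. No paired analysis was possible because there is 1 group. Depth limits Mycn, Myb, Mxd4 and Mlx, each under 100 counts in every library.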
